A study of Mus musculus with 12 samples.

Results

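The genes described here are the transcription factors Tead1, Tead2, Tead3 and Tead4, their coactivators Yap1 and Wwtr1 (which encodes TAZ), and Ctgf, Cyr61, Ankrd1 and Amotl2, genes that the complex of YAP or TAZ with a TEAD factor is known to switch on. They were taken as 10 of the 20887 genes named on the array, through 13 probes whose transcript belongs to one of them, and all 10 passed the filter on dim probes. Tead2 was chosen by its measured level, which differed between the genotypes on these arrays, so its genotype values are a description with no test. The other 9 genes were picked for their family or role. Ctgf and Cyr61 are listed under their current names, Ccn2 and Ccn1, in the gene table used here.

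RNA came from skin of 12 male mice of mixed background (C57Bl6 and 129Sv, 75:25), collected 12 days after hair was plucked, on 1 one-colour array per mouse. The study asked what part Sox4 plays in hair regrowth and in waking the follicle's stem cells. Of the mice, 6 were wild type (WT), and Sox4 was deleted conditionally in the skin of the other 6 (cKO), by a Cre line that the sources used here do not name. Exp 1 mice were 68 to 72 weeks old (WT mice 1, 2 and 3, cKO mice 2, 5 and 6) and Exp 2 mice 16 to 20 weeks old (WT mice 4, 5 and 6, cKO mice 1, 3 and 4), so an effect of age and one of the experiment cannot be told apart. The array names carry a tag, P1 or P2, whose meaning is not given. In Exp 2 every WT array had P2 and every cKO array P1, so genotype and tag cannot be told apart there. In Exp 1 each genotype had both tags.

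As background, the Hippo pathway is a kinase cascade that reads cell contact, polarity and tension. When it is active, MST kinases activate LATS kinases, which phosphorylate YAP and TAZ and keep them out of the nucleus. When it is quiet, YAP and TAZ enter the nucleus and bind DNA through a TEAD factor, since they have no DNA-binding domain of their own. In skin the pathway is known for its part in the growth of basal keratinocytes and in wound repair. Much of its control acts on phosphorylation and location of proteins, which an RNA measurement does not read.

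RefSeq promoter windows of GRCm38.p6, the 250 bases before a transcript start, were at hand for 7 of the 10 genes in 10 windows; Tead1, Tead4 and Ctgf had no entry. Both strands were searched for ACAAAG, a short form of the sequence that Sox proteins bind, and for GGAATG, the core of the TEAD site. ACAAAG or its complement CTTTGT was in 16.5% of 32851 mouse windows of this length, and GGAATG or its complement CATTCC in 12.6%. The Tead2 window and those of the targets Cyr61 and Ankrd1 are shown to place these letters, with the matches in capitals, 5′ to 3′ on the gene's strand.
Tead2, chr7:45215542-45215791, plus strand: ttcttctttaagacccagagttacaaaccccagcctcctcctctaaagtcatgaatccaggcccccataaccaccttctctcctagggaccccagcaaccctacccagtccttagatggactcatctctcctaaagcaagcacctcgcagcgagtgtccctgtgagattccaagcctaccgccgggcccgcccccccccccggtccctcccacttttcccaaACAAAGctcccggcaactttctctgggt
Cyr61 (Ccn1), chr3:145649986-145650235, minus strand: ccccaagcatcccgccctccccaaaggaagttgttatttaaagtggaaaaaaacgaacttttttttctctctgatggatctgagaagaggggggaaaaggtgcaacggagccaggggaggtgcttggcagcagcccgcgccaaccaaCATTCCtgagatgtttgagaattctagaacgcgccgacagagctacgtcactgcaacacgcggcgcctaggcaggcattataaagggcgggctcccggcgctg
Ankrd1, chr19:36119845-36120094, minus strand: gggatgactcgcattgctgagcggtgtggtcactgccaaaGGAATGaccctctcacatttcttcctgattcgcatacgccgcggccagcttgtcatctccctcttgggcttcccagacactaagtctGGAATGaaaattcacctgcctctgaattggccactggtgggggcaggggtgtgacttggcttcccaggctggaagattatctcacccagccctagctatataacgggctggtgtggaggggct

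The Tead2 window holds 1 ACAAAG, 28 to 23 bases before the start, and no GGAATG. The Cyr61 window holds CATTCC 103 to 98 bases before the start. The Ankrd1 window holds GGAATG in 2 places, 210 to 205 and 123 to 118 bases before the start. Windows of Wwtr1, Yap1, Amotl2 and Tead3 also hold the TEAD letters, in 2 of the 3 windows of Tead3, and no window of the 6 genes other than Tead2 holds ACAAAG. No match of one motif overlapped a match of the other in these windows. These are matches of letters, not measured binding.

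Levels below are log2 processed signals relative to the 75th percentile of the same array, errors beside group means are SD, errors beside differences are SE, and p-values come from limma, adjusted by the Benjamini-Hochberg method over 16183 genes. The p-values set a difference against the spread between mice of a group, pooled over the 4 groups and moderated by limma. Each level is read from a single probe, so levels are compared between mice and never between genes. Of all probes, 53.9% to 62.6% were well above background per array, and the 75th percentile lay between 364 and 554 intensity units. Sox4 was between 1.90 and 2.43 in the 6 WT mice and between -4.26 and -2.55 in the 6 cKO mice, a fitted difference of -5.54 ± 0.12. The probe was not well above background in cKO mice 5 and 6, whose dim readings enter that fit as they stand; where this probe lies relative to the deleted part is not given. The basal keratinocyte markers, 7 of 7, were well above background in every mouse. Skeletal muscle markers were 14 of 14 lower in Exp 1 than in Exp 2 with a median of -6.13 and all 14 past the threshold. The mouse that stood apart was cKO mouse 5, whose mean level of hair matrix and shaft markers was 1.22 against 3.52 to 4.43 in the other 11 mice. In bulk skin, fewer cells of a type and less RNA per cell cannot be told apart.

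Tead2 was lower in every cKO mouse than in any WT mouse. The used probe read 0.99, 1.26 and 1.25 in WT mice 1 to 3 and 1.08, 1.24 and 1.06 in WT mice 4 to 6. It read -0.14, -0.41 and -0.04 in cKO mice 2, 5 and 6 of Exp 1, and 0.13, -0.06 and 0.01 in cKO mice 1, 3 and 4 of Exp 2. The lowest WT mouse thus stood above the highest cKO mouse, 0.99 against 0.13, with cKO mouse 5 the lowest of all. In intensity units before scaling, the WT mice lay between 949 and 1293 and the cKO mice between 275 and 606. The fitted difference was -1.23 ± 0.092 averaged over experiments (95% interval -1.44 to -1.03), a 2.35-fold lower signal. Tead2 was chosen for this difference, so the interval does not allow for that choice and is no test.

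The ordering of the Tead2 group means was WT Exp 1 at 1.16 ± 0.15, WT Exp 2 at 1.13 ± 0.10, cKO Exp 2 at 0.03 ± 0.10 and cKO Exp 1 at -0.19 ± 0.19, each with n = 3. Neighbours of one genotype overlapped; the genotypes did not, as was so for 1.26% of all genes over all 12 mice. The difference was -1.36 ± 0.13 in Exp 1 and -1.10 ± 0.13 in Exp 2, and the first minus the second was -0.25 (95% interval -0.66 to 0.16). A further Tead2 probe, well above background in all 12 mice, ran from -0.26 to 0.22 in WT and from -1.67 to -1.01 in cKO mice, and its difference was also -1.23. Within slide 1 the difference was -1.23 and within slide 2 -1.23, and without cKO mouse 5 it was -1.18.

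Some lists of markers also had shifted means between genotypes, with 0 genes past the threshold. Of the mitosis markers, 11 of 11 tested had a lower mean in cKO, with a median of -0.36, 0 called and a smallest adjusted p of 0.057. Of these 11 markers, 9 had an unadjusted limma p under 0.05 (12.2% of all genes), 11 in Exp 1 (11.3%) and 1 in Exp 2 (4.67%). Their summed signal, in multiples of the 75th percentile, ranged from 75.8 to 107 in WT Exp 1, 75.3 to 98.1 in WT Exp 2, 54.5 to 78.8 in cKO Exp 1 and 77.4 to 84.4 in cKO Exp 2, and none of the 11 was below background in any mouse. Of the hair matrix and shaft markers, 8 of 8 tested had a lower mean in cKO, with a median of -0.45 and 0 called; without cKO mouse 5, 4 of 8 were lower (1 called) and the median was -0.0036. Their summed signal ranged from 418 to 588 in WT Exp 1, 722 to 940 in WT Exp 2, 77.6 to 686 in cKO Exp 1 and 700 to 901 in cKO Exp 2. At least 7 of these 8 were well above background in every mouse. Of the skeletal muscle markers, 14 of 14 had a higher mean in cKO, with a median of 2.51 and 0 called (1.38 without WT mouse 5). Melanocyte markers, 6 of 6 lower in cKO, had a median of -0.73 and 0 called, and -0.20 without cKO mouse 5. The part of these lists in the Tead2 difference was not tested.

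The paralogs of Tead2, the coactivators and the targets, picked for family or role, had overlapping ranges in WT and cKO mice, as most genes did. Of the 9 genes tested, 0 were called for genotype averaged over experiments by limma, where 0.42% of all genes were called, and 0 had an unadjusted p under 0.05, against 12.2% of all genes. Their median difference was 0.03, against -0.04 for all genes. The ranges of WT and cKO mice were apart for 0 of the 9, against 1.26% of all genes. In Exp 1 alone 0 of 9 were called (0.117% of all genes; 1 of the 9, Ankrd1, at an unadjusted p under 0.05, against 11.3% of all genes), and in Exp 2 alone 0 of 9 (0.0618%; 0 at an unadjusted p under 0.05, against 4.67%). The genotype difference itself was not called as differing between experiments for any of the 9 (0.00618% of all genes; 0 at an unadjusted p under 0.05, against 3.16%).

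**Figure D1:**
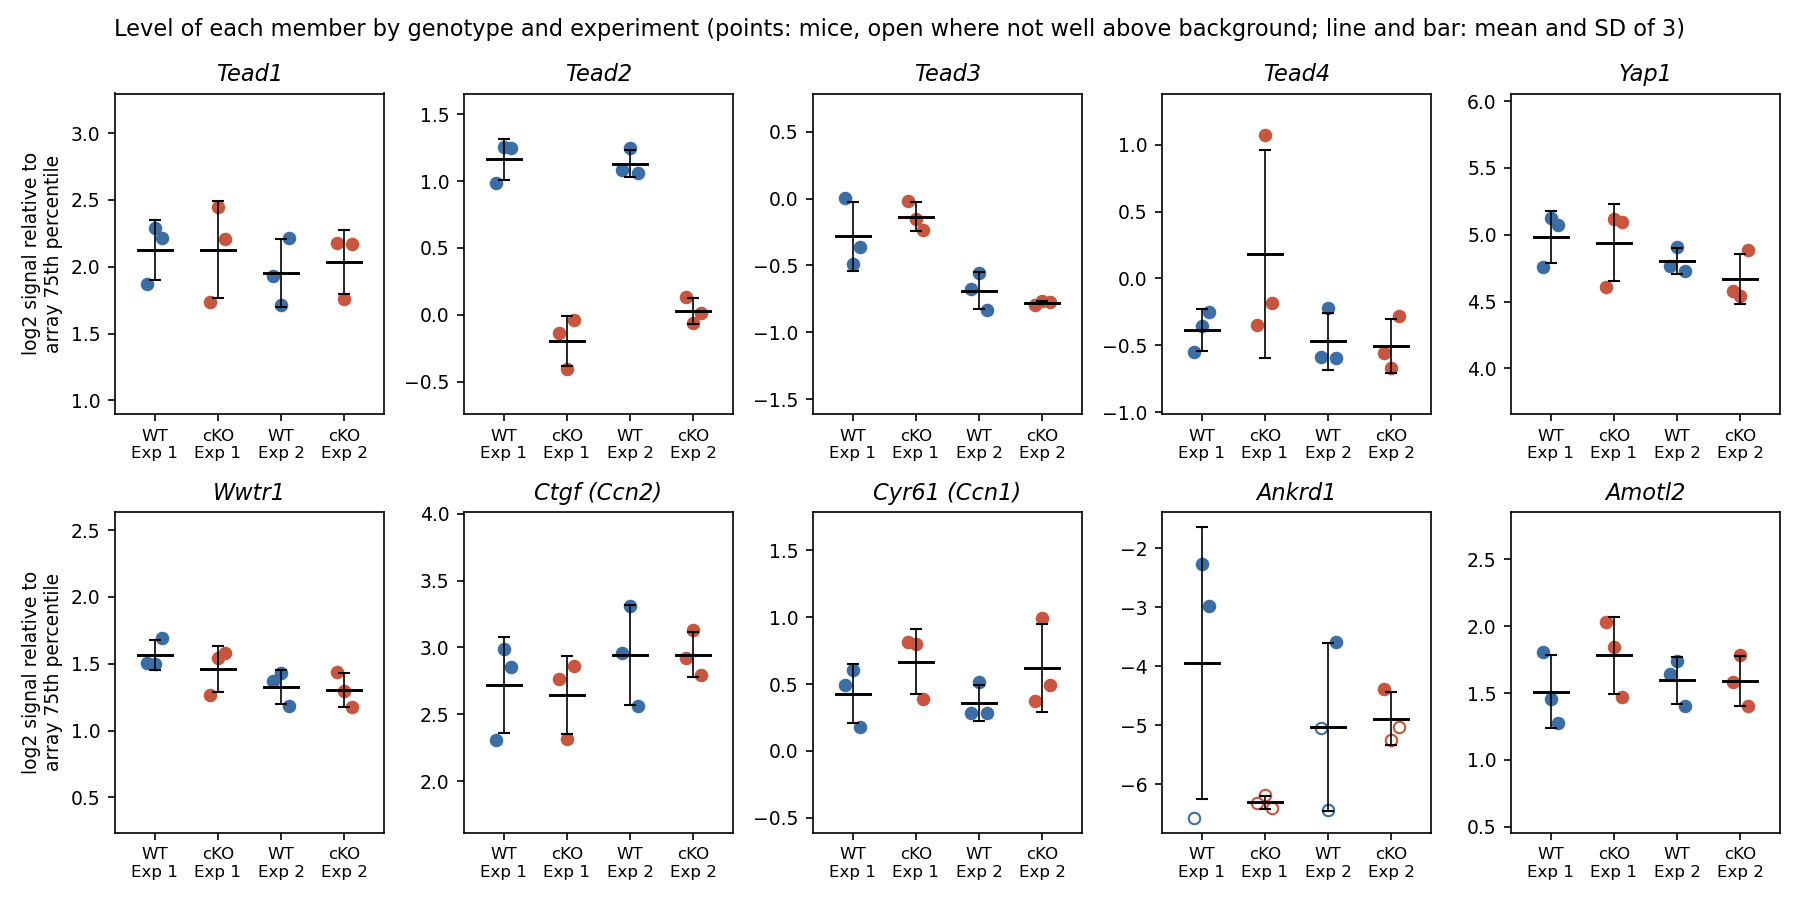
Level of each of the 10 genes (y axis: log2 signal relative to the array's 75th percentile; x axis: the 4 groups of 3 mice), with 1 point per mouse, open where the probe was not well above background, and a line and bar for mean and SD. Tead2 separates WT (0.99 to 1.26) from cKO (-0.41 to 0.13), and Tead3 separates Exp 1 (-0.49 to 0.01) from Exp 2 (-0.83 to -0.56); the y axes differ between panels.

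Among the TEAD paralogs, Tead1 differed by 0.04 ± 0.15 between genotypes (95% interval -0.29 to 0.38, adjusted p 0.93). It ranged from 1.71 to 2.29 in WT and from 1.73 to 2.45 in cKO mice. Its 2 other probes gave mean differences of 0.14 and 0.33. The Tead3 difference was 0.03 ± 0.099 (95% interval -0.19 to 0.25, adjusted p 0.93). The intervals of Tead1 and Tead3 allow differences of up to 0.38 in size, so they do not show that the levels were equal.

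Tead4 read -0.55, -0.36 and -0.25 in WT mice 1 to 3 and -0.59, -0.22 and -0.59 in WT mice 4 to 6. In cKO mice 1 to 6 it read -0.56, -0.35, -0.67, -0.28, 1.07 and -0.18. A single mouse, cKO mouse 5, lay well above all others, and the other 5 cKO mice lay near or inside the WT range. The genotype difference was 0.27 ± 0.22 (95% interval -0.23 to 0.76, adjusted p 0.65) and 0.04 without that mouse. Within slide 2, which holds cKO mouse 5 as its 1 cKO mouse of Exp 1 and leaves 1 residual degree of freedom, it was 0.97 with an adjusted p of 0.047, and within slide 1 it was -0.15 with an adjusted p of 0.67.

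Both coactivators were close between genotypes. Yap1 ranged from 4.73 to 5.12 in WT and from 4.54 to 5.12 in cKO mice, a difference of -0.09 ± 0.12 (95% interval -0.35 to 0.18, adjusted p 0.79). Wwtr1 ranged from 1.18 to 1.70 in WT and from 1.18 to 1.58 in cKO mice, a difference of -0.06 ± 0.091 (95% interval -0.27 to 0.14, adjusted p 0.80). For neither gene was the difference larger than the spread between mice.

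The targets went in no shared direction. Ctgf, which encodes a secreted matricellular protein, ranged from 2.31 to 3.31 in WT and from 2.31 to 3.13 in cKO mice and differed by -0.03 ± 0.17 (95% interval -0.41 to 0.34, adjusted p 0.95). Cyr61, a secreted protein of the same family, read 0.49, 0.61, 0.18, 0.28, 0.51 and 0.28 in WT mice 1 to 6. In cKO mice 1 to 6 it read 0.37, 0.81, 0.99, 0.50, 0.80 and 0.39. The highest values of Cyr61 were thus in 3 cKO mice, but the ranges overlapped and the difference of 0.25 ± 0.14 (95% interval -0.05 to 0.55) had an adjusted p of 0.49. Amotl2, which encodes an angiomotin-like protein that binds YAP, differed by 0.13 ± 0.13 (95% interval -0.16 to 0.43, adjusted p 0.71).

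Ankrd1, which encodes an ankyrin-repeat protein known from muscle and from injured tissue, was near background. It was well above background in 4 of 12 mice, at -2.27 in WT mouse 2, -2.97 in WT mouse 3, -3.59 in WT mouse 6 and -4.39 in cKO mouse 1. The other 8 mice read from -6.58 to -5.02 and have only a bound. In Exp 1 the probe passed background in 2 of the 3 WT mice and in 0 of the 3 cKO mice, and was at least 1.78-fold lower in cKO. That bound sets the mean of the WT mice, dim ones at their own value, against the lowest signal well above background on each cKO array, or the probe's own where higher. The fitted difference in Exp 1, -2.36 (adjusted p 0.42), uses the dim readings as they stand. It was -3.74 within slide 1 and 0.39 within slide 2, the latter 1 mouse against 1, -3.68 without WT mouse 1 and -1.53 without WT mouse 2. The bound was 4.43-fold without WT mouse 1, 1.27-fold without WT mouse 3, and there was none without WT mouse 2. Averaged over experiments the fitted difference was -1.11 ± 0.70 (95% interval -2.67 to 0.45, adjusted p 0.55).

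**Figure D2:**
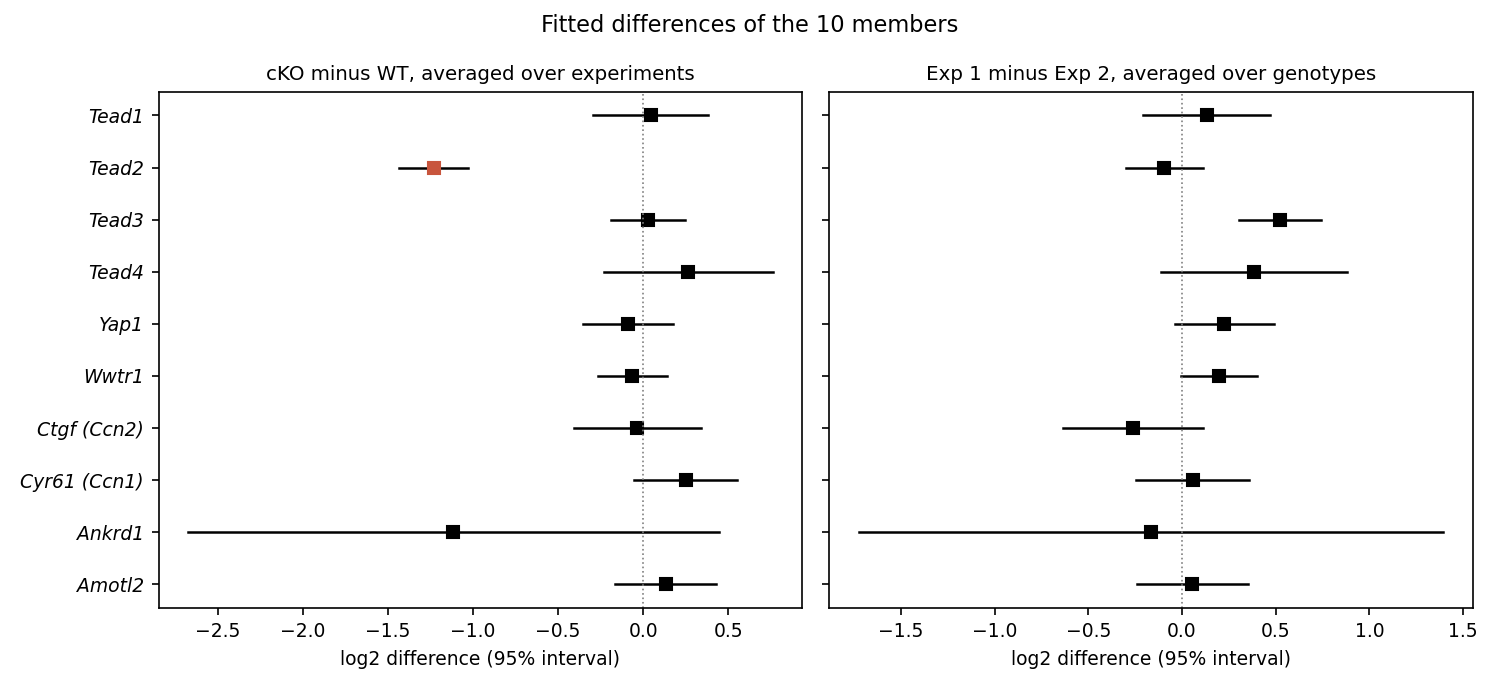
Fitted log2 differences of the 10 genes (x axis) with their 95% intervals, for cKO minus WT and for Exp 1 minus Exp 2; Tead2 in the genotype panel is in red because it was chosen for that difference. Of the other intervals in the genotype panel all 9 include 0, and in the experiment panel that of Tead3 (0.31 to 0.74) lies above 0.

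Between experiments Tead3 was higher in Exp 1 than in Exp 2, and it was the 1 gene of 10 called, where 20.2% of all genes were called and 10.7% were called higher. Tead3 read 0.01, -0.49 and -0.36 in WT mice 1 to 3 of Exp 1, and -0.02, -0.16 and -0.23 in cKO mice 2, 5 and 6. In Exp 2 it read -0.68, -0.56 and -0.83 in WT mice 4 to 6, and -0.79, -0.77 and -0.78 in cKO mice 1, 3 and 4. Every Exp 1 mouse was above every Exp 2 mouse, as was so in this direction for 5.72% of all genes. The difference was 0.52 ± 0.099 (95% interval 0.31 to 0.74, adjusted p 0.0068), a 1.44-fold higher signal.

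The Tead3 difference between experiments was 0.41 ± 0.14 in WT (adjusted p 0.16) and 0.64 ± 0.14 in cKO mice (adjusted p 0.026), and these were not called as different (0.24, 95% interval -0.20 to 0.67). In WT alone 0 of 10 genes were called (0.84% of all genes; 1 of 10, Tead3, at an unadjusted p under 0.05, against 18.5% of all genes), and in cKO alone 1 of 10 (9.98%). Within slide 1 the averaged Tead3 difference was 0.40 with an adjusted p of 0.33, and within slide 2 it was 0.69 with an adjusted p of 0.034. With the muscle marker mean as a covariate it was 0.35 with an adjusted p of 0.40. That mean itself split by experiment, at -3.58 in Exp 1 against 3.23 in Exp 2 in WT and -0.54 against 5.20 in cKO mice. With it as a covariate 0 of 16183 genes were called between experiments, so a lost call there is not particular to Tead3. The call in cKO mice was lost without any one of cKO mice 1, 2, 3, 4 or 5, with values from 0.59 to 0.65.

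Basal keratinocyte markers differed in the same direction. Of them 7 of 7 had a higher mean in Exp 1, with a median of 0.68 and 6 called (3 without any one of WT mice 2, 4 or 6 or cKO mice 1 or 3). Their summed signal ranged from 747 to 912 in WT Exp 1, 808 to 1347 in cKO Exp 1, 581 to 794.9 in WT Exp 2 and 534 to 665 in cKO Exp 2, and none was below background. The hair matrix and shaft markers went the other way, 8 of 8 lower in Exp 1 with a median of -0.72 and 0 called. Their medians were -0.41 in WT and -1.02 in cKO mice. Mitosis markers were lower in 11 of 11, with a median of -0.19 and 1 called, but with a median of 0.02 in WT alone. Marker lists of 4 other cell types had lower medians in Exp 1, at -1.43 for adipocyte (1 of 6 called; -0.83 without cKO mouse 5), -0.62 for macrophage (3 of 4 called), -0.49 for melanocyte (0 of 6; -0.02 without cKO mouse 5) and -0.15 for endothelial markers (2 of 6). Between genotypes these lists had 0 called, with medians of -0.56, -0.20, -0.73 and 0.03; without cKO mouse 5 those of the adipocyte and melanocyte markers were -0.077 and -0.20. The part of any of these lists in the Tead3 difference was not tested.

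The other 9 genes were not called between experiments. Tead4 differed by 0.38 ± 0.22 (adjusted p 0.25), and by 0.16 without cKO mouse 5. Yap1 differed by 0.23 ± 0.12 (adjusted p 0.20) and Wwtr1 by 0.20 ± 0.091 (adjusted p 0.15). Wwtr1 of the WT mice did not overlap, with 1.50 to 1.70 in Exp 1 and 1.18 to 1.43 in Exp 2, as was so for 27.9% of all genes. Tead2 differed by -0.09 ± 0.092 (adjusted p 0.50), Tead1 by 0.13 ± 0.15 (adjusted p 0.58) and Ctgf by -0.26 ± 0.17 (adjusted p 0.29). Cyr61, Amotl2 and Ankrd1 had adjusted p-values from 0.80 to 0.89.

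The wider pathway was read through 51 listed genes, of which 47 were tested and 4 (Dchs2, Llgl1, Vgll1 and Foxf2) were not. Between genotypes 0 of 47 were called by limma (0.42% of all genes), and 8 had an unadjusted p under 0.05, 6 of them among the further targets, where 12.2% of all genes did. The medians were 0.02 for 15 core kinases and scaffolds, 0.00 for 14 upstream regulators of junctions and polarity, 0.17 for 3 VGLL cofactors (-0.011 without cKO mouse 5) and -0.07 for 15 further targets, against -0.04 for all genes.

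The smallest adjusted p among them belonged to Gadd45a, a stress-induced gene and YAP target. It read 0.82, 1.21, 1.16, 1.00, 1.06 and 1.06 in WT mice 1 to 6. It read 0.72, 0.04, 0.42, 0.66, 0.36 and 0.67 in cKO mice 1 to 6. No cKO mouse reached the lowest WT mouse, as was so in this direction for 1.2% of all genes. The difference was -0.57 ± 0.12 with an adjusted p of 0.086, and it passed the threshold in 1 of 27 alternatives, without cKO mouse 6 (-0.65, adjusted p 0.035). Without single mice it ranged from -0.65 to -0.49, and the largest adjusted p over the alternatives was 0.44.

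The other list genes named here for small p-values were lower in cKO, apart from Myof. Tgfb2, a growth factor, differed by -0.35 ± 0.12 (adjusted p 0.29), Patj, a polarity scaffold, by -0.25 ± 0.082 (adjusted p 0.27) and Map4k4, a kinase that acts on LATS, by -0.25 ± 0.10 (adjusted p 0.37). Myof, which encodes a membrane repair protein, differed by 0.66 ± 0.24 (adjusted p 0.31), from a probe well above background in 4 of 12 mice.

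**Figure D3:**
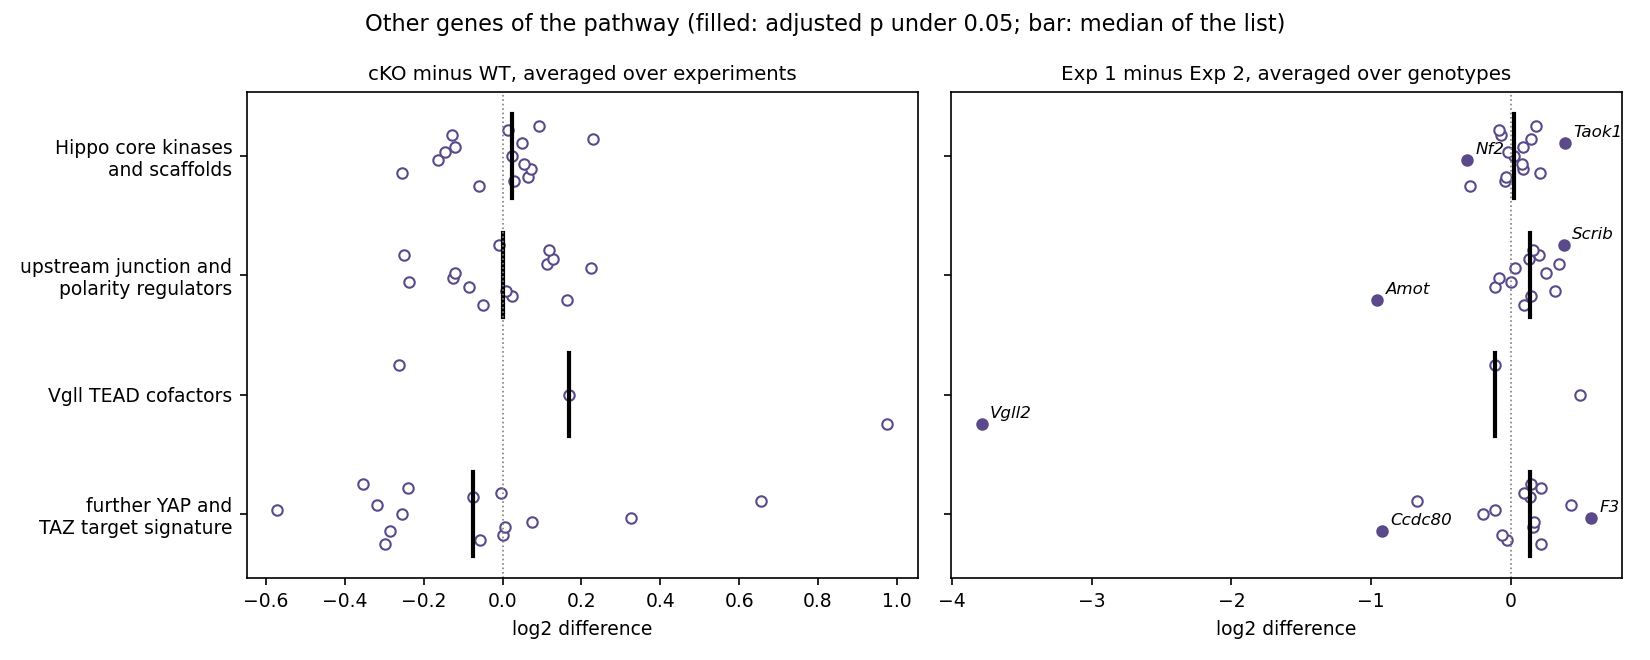
Log2 difference (x axis) of each tested gene of the 4 pathway lists, with 1 point per gene, filled where the adjusted p was under 0.05, and a bar for the list's median. The genotype panel has 0 filled points and the experiment panel 7, with Vgll2 (-3.79) farthest from 0.

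Between experiments 7 of the 47 were called, 3 higher and 4 lower in Exp 1, against 20.2% of all genes, 10.7% higher and 9.47% lower. Higher were Taok1, a kinase upstream of MST, by 0.39 ± 0.11 (adjusted p 0.032), Scrib, a polarity scaffold, by 0.38 ± 0.085 (adjusted p 0.013), and the target F3, which encodes tissue factor, by 0.58 ± 0.14 (adjusted p 0.017). Lower were Nf2, which encodes the scaffold Merlin, by -0.31 ± 0.088 (adjusted p 0.031), Amot, which encodes angiomotin, by -0.96 ± 0.27 (adjusted p 0.034), and the target Ccdc80, a matrix protein, by -0.92 ± 0.12 (adjusted p 0.0024). These values are averaged over genotypes. In WT alone 0 of the 47 were called by limma (0.84% of all genes), with a smallest adjusted p of 0.088. In cKO alone 1 was called higher and 2 lower, where 9.98% of all genes were called.

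Ccdc80 read 3.53, 3.74 and 4.08 in WT mice 1 to 3 and 3.21, 2.84 and 3.35 in cKO mice 2, 5 and 6, all of Exp 1. In Exp 2 it read 4.32, 4.36 and 4.33 in WT mice 4 to 6 and 4.48, 4.53 and 4.25 in cKO mice 1, 3 and 4. No Exp 1 mouse reached an Exp 2 mouse, as was so in this direction for 4.56% of all genes. Fibroblast markers, which include matrix genes, had a median of -0.12 with 2 of 6 called lower. Their summed signal ranged from 1365 to 1587 in WT Exp 1, 1339 to 1614 in cKO Exp 1, 1621 to 1664 in WT Exp 2 and 1412 to 1865 in cKO Exp 2, with all 6 above background in every mouse, and their part in the Ccdc80 difference was not tested.

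The fourth gene that was lower in Exp 1 was Vgll2, a TEAD cofactor known from skeletal muscle, at -3.79 ± 0.70 (adjusted p 0.0066). It read -1.02, -4.59 and -0.65 in WT mice 4 to 6 and -0.64, -2.42 and -0.14 in cKO mice 1, 3 and 4 of Exp 2. In Exp 1 it was well above background in cKO mouse 6 alone, at -3.80, and read from -6.27 to -4.86 in the other 5 mice. In WT mice it was at least 6.85-fold lower in Exp 1, and 4.17-fold to 16.3-fold as a bound without single WT mice of Exp 2. In WT alone 0 of the 3 tested VGLL cofactors were called by limma, with a smallest adjusted p of 0.088. In cKO mice alone Vgll2 was called (-3.83), and that call was lost in 16 of 26 alternatives. The summed signal of the 14 muscle markers ranged from 2.44 to 4.87 in WT Exp 1, 4.77 to 67.3 in cKO Exp 1, 18.0 to 1903 in WT Exp 2 and 930 to 1898 in cKO Exp 2. With the muscle marker mean as a covariate the Vgll2 difference was -0.07 (adjusted p 0.97). With that covariate 0 of 16183 genes were called between experiments, so a lost call there is not particular to Vgll2. The part of muscle in the Vgll2 difference was not tested.

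The Amot difference turned to 0.36 with the muscle covariate (adjusted p 0.61), under which 0 genes were called between experiments. The call of Amot was lost without any one of WT mice 1, 2, 3, 4 or 6 or cKO mice 1, 2, 4 or 5. That of Nf2 was lost without any one of WT mice 1, 4 or 5 or cKO mice 2, 3 or 4, and as a mean over its kept probes Nf2 differed by -0.07 (adjusted p 0.63). That of Taok1 was lost without any one of WT mice 1, 2, 3, 4 or 6 or cKO mice 1 or 3. Leaving out single mice did not end the calls of Scrib, F3, Ccdc80 and Vgll2 averaged over genotypes. Over all 27 alternatives the averaged call was lost in 5 for Scrib, 4 for F3, 2 for Ccdc80 and 2 for Vgll2.

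**Figure D4:**
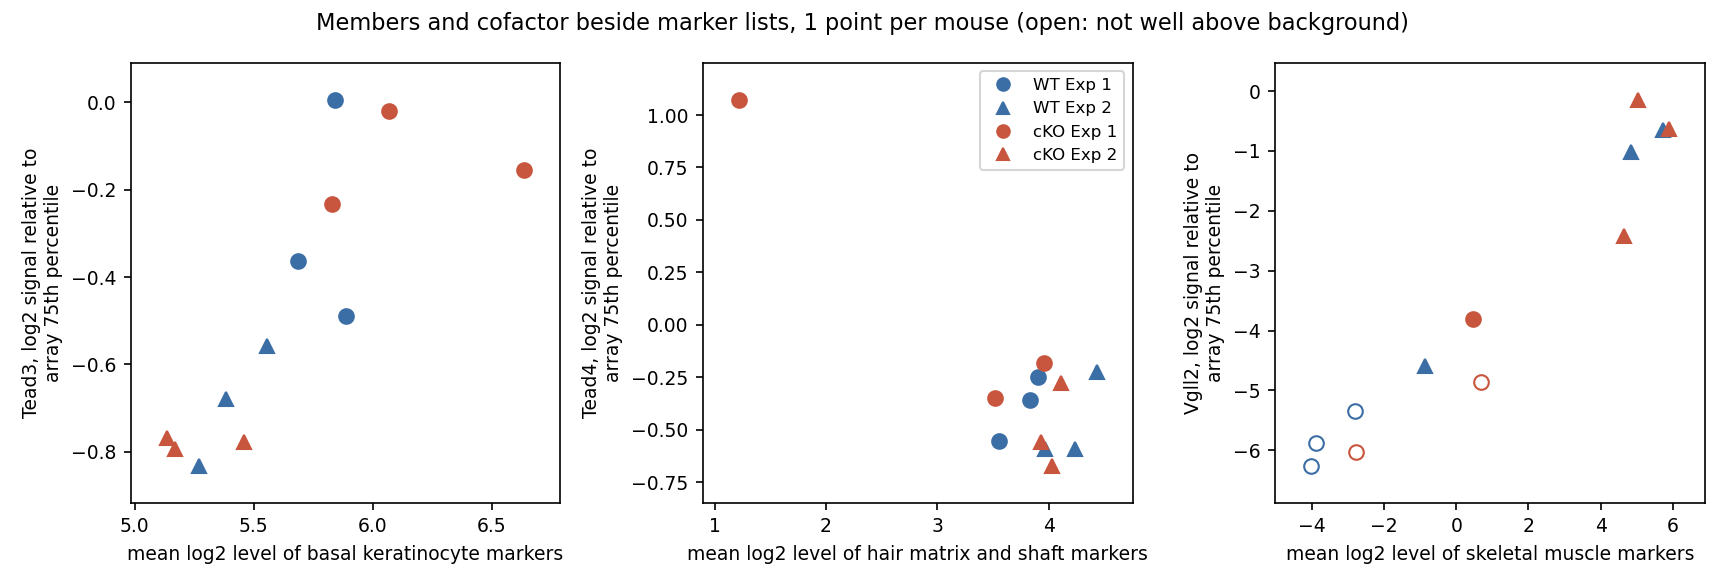
Levels of Tead3, Tead4 and Vgll2 (y axes: log2 signal relative to the 75th percentile) against the mean log2 level of a marker list (x axes), with 1 point per mouse, circles for Exp 1, triangles for Exp 2, and open symbols where the probe was not well above background. Tead3 and the basal keratinocyte markers are both higher in Exp 1, cKO mouse 5 lies apart in the Tead4 panel (1.07 at a hair marker level of 1.22), and Vgll2 is highest (-2.42 to -0.14) in the 5 mice whose summed muscle signal is 930 or more.

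The genes whose levels most resembled those of Tead2 over the 12 mice, by Pearson correlation among 16157 genes, were Mex3a (0.989), Evl (0.980), Plppr3 (0.979), Sox4 (0.979), Zfp454 (0.966), Zfp422 (0.964), Grp (0.957), Nme4 (0.952), Fam171a2 (0.950) and Zfp518b (0.944). These values mostly restate the split between genotypes, which Tead2 was chosen for, and the genes compared share the arrays and their scaling. Mex3a encodes an RNA-binding protein, Evl a regulator of actin filaments and Grp a signalling peptide. Removing each group's mean left 8 degrees of freedom, and the genes then named are those with the highest of 16157 values. After each group's mean was removed, the genes named as most alike were Dlst (0.965), Bend5 (0.961), Nol7 (0.957) and Cenpp (0.955), all over 12 mice, while Sox4 had -0.18. Of the other 9 genes, Ctgf came nearest by this measure, at 0.78, ranking 775 of 16157. None of the 9 was among the 10 most alike by level, where Ankrd1 at 0.48 was the nearest.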

How the data were processed

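RNA of 12 mice was measured on 12 one-colour Agilent arrays on 3 slides. Per the file headers, Feature Extraction 11.5.1.1 made the processed signal, an intensity with background subtracted and no scaling from array to array. The authors also deposited a table of log2 values, used as an alternative only; its column for cKO mouse 1 correlated with that mouse's array at 0.41 (gene means removed, 16158 genes), against 0.84 to 0.92 for the other 11. The submitters' processing notes name limma, and nothing further on that table was found in the labels. Spots marked as outliers were left out, log2 signals were averaged per probe, and each array's 75th percentile was subtracted. Probes were named by transcript accession through the RefSeq gene table of GRCm38.p6 (27509 of 55681 probes), kept if well above background on at least 3 of 12 arrays, and the brightest kept probe stood for a gene. limma 3.58.1 in R 4.3.3 fitted 4 group means to 16183 genes, with 7 contrasts, two-sided tests and a threshold of 0.05 on the adjusted p. The script was tested on simulated data.

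The genes and lists were chosen with earlier results of these data known. Genes named were Sox4, the 10 members, list genes past the threshold in an averaged contrast or among the 3 smallest p-values of a list, and the genes most like Tead2 (10 by level, 5 by deviations from group means, without identifier-only names); 1 of the latter is not reported here. Lists tested for the pathway were 4; marker lists were basal keratinocyte, hair matrix and shaft, mitosis, fibroblast, endothelial, skeletal muscle, adipocyte, melanocyte and macrophage. Alternatives were other background corrections and scalings, the deposited log2 table, probe filters, slide, array-name tag and mouse number as terms, the muscle list as a covariate, and each mouse left out. The WT and cKO mice numbered 1, 3, 5 and 6 lay in different experiments, so mouse number as a term groups mice across experiments. Deviations of same-numbered mice correlated between -0.26 and 0.07. With 3 mice per group these correlations cannot settle whether numbers 2 and 4 mark pairs. The number of arrays limits the precision.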

Additional observations from a re-analysis of the deposited data

Results flagged for a closer look

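Tead4 in cKO mouse 5 was 1.07, against -0.18 in the next cKO mouse, a gap that took 0.719 of the range of the 6 cKO mice. It was the 1 of 20 groups of 6 mice tested in which a mouse stood so far out, and chance gives about 1 in 20. The same mouse had the lowest mean levels of the hair matrix and shaft (1.22), melanocyte (0.84) and adipocyte (0.06) markers and the highest of the basal keratinocyte markers (6.64). Its array also had the lowest 75th percentile (364 intensity units) and the lowest share of probes well above background (53.9%) of the 12 arrays. The part of these in its Tead4 level was not tested.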

How the results depend on the processing

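Under the 27 alternatives the Tead2 difference kept its sign, from -1.32 to -1.02. It was -1.08 after normexp and quantile normalization, -1.02 in the authors' deposited log2 table and -1.08 in that table without cKO mouse 1, an alternative chosen after seeing the data, since that column does not match its array, as were leaving single mice out of the lists and the bounds; without single mice it ranged from -1.28 to -1.18, and with mouse number as a replicate block it was -1.23. Within slide 2, 1 of the 9 other genes (Tead4) was called for genotype, averaged and in Exp 1; there Exp 1 is WT mouse 1 against cKO mouse 5, each assumed to vary like the other groups. For the averaged experiment contrast, 2 of 10 were called after normexp, in the deposited log2 table with or without cKO mouse 1 and within slide 2, and 0 within slide 1, with the muscle covariate and with the replicate block. Yap1 was the further gene called after normexp (0.30) and in the deposited table (0.30, or 0.28 without cKO mouse 1). Of all 16183 genes, 4002 were called between experiments after normexp, 1627 in the deposited table and 3404 there without cKO mouse 1. The main fit called 9.98% of all genes in cKO mice alone, and that share under the alternatives is not given. In cKO mice alone 0 were called under median scaling, in the deposited table, with slide as a block, within slide 1, with the array-name tag and with the muscle covariate, and 0 to 1 without single mice. Pathway genes called between experiments fell from 7 to 4 under median scaling, in the deposited table and with slide as a block, to 3 with the replicate block and to 0 within slide 1 and with the muscle covariate, and ranged from 4 to 9 without single mice; between genotypes that range was 0 to 1. Amot reversed to 0.36 with the muscle covariate. Median scaling moved the genotype median of all genes from -0.04 to -0.12. Calls over all genes, 68 for genotype, were 16 in the deposited table, 36 there without cKO mouse 1, 31 with the tag, 11 with the muscle covariate, 7 with the replicate block, 45 with no filter, 80 within slide 1 (61 higher, 19 lower), 499 within slide 2 (161 higher, 338 lower) and 31 to 122 without single mice. Calls between experiments, 3269 (1737 higher, 1532 lower), were 2173 under median scaling (708 higher, 1465 lower), 1627 in the deposited table, 3404 there without cKO mouse 1, 3369 within slide 2, 61 within slide 1, 0 with the muscle covariate, 558 with the replicate block and 1994 to 3560 without single mice; with no filter 2984 were higher and 1526 lower. The cause of these changes was not tested. Ankrd1, well above background in 4 of 12 mice, is limited by its dim signal, and slides 1 and 2 leave 2 and 1 residual degrees of freedom.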
